A study of Mus musculus with 52 samples.

Results

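The 9 genes described here mark the trophectoderm, the outer epithelium of the blastocyst, or encode the simple keratins of such epithelia: Cdx2, Gata3, Krt7, Krt8, Krt18, Krt19, Cdh3, Plac8 and Ddah1. They were taken by name, as all probes listed under these symbols in the platform annotation; the set of names was drawn up with earlier results of these data known. They had 12 of the 20794 probes and were 9 of the 9030 genes with a symbol on the array. Cdx2, Cdh3 and Ddah1 had a pair of probes each, and the other 6 genes had 1 probe.

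The study compared mouse embryonic stem (ES) cell lines obtained with nuclei of different donor cells, on 52 two-colour cDNA arrays in 13 direct comparisons of 7 lines, with 4 arrays each. The lines are labelled ZFCUMNT, PDCUMNT, B6PGA, HM-1 NT, B6NT, #4 (B6) and HM-1, and HM-1 is an established ES line used for gene targeting. The study's design text says that a pair of the lines came from cumulus donor nuclei by different cloning methods, and does not say which. The labels spell out none of the abbreviations and give no genotype, passage number, clone number or feeder layer for any line, so each name is used as it stands.

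The first lineage choice of the mouse embryo separates the inner cell mass, from which ES cells are derived, from the trophectoderm, which forms the placenta. Cdx2 and Gata3 are transcription factors of the trophectoderm, and Cdx2 and the ES factor Oct4 (Pou5f1) repress each other. Keratin filaments are built from pairs of a type II and a type I chain; Krt8 with Krt18 is the first pair made in the embryo, and Krt7 and Krt19 are the other simple keratins of trophoblast. In ES cultures these products are known as marks of cells that differentiate into trophoblast, endoderm or other epithelia.

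Each value below is a log2 ratio of 2 lines on 1 array, turned so that it gives the second-named line of the label minus the first-named line. In each comparison the second-named line was labelled with Cy5 on arrays 1 and 2 and with Cy3 on arrays 3 and 4. The sign holds under the reading Cy5 over Cy3; the labels do not state the dye in the numerator, and if it was Cy3 every sign turns at once. Ratios carry no level of a gene, so no gene's amount is set against another's. The labels do not say that the 4 arrays came from separate cultures, so p-values measure only the spread between these arrays, which may be technical. RNA came from whole cultures, in which fewer cells of a type and less RNA per cell cannot be told apart.

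Each array had between 17620 and 20200 measured probes. Agreement between arrays was low: arrays of 1 comparison and 1 dye orientation had a median correlation of 0.174 over all probes. An exchange of the dyes should turn the sign of a ratio, but as deposited, arrays of opposite orientation correlated at 0.373 on average in #4 (B6) minus HM-1 and at 0.280 in HM-1 NT minus HM-1, against a mean of 0.0560 over pairs of opposite orientation with no line in common. The turn by the dye labels is therefore a reading. With each probe's mean removed, opposite arrays still correlated at 0.146 in #4 (B6) minus HM-1 and at 0.0924 in HM-1 NT minus HM-1, against 0.0185 in B6PGA minus #4 (B6) and -0.0633 in HM-1 NT minus B6NT. With the ratios left as they stand, 60 of 116 fitted values of the 9 genes had the other sign. A dye effect passed the test in 32.3% of all features.

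Among the tested values of the 9 genes, the highest fitted value and the lowest adjusted p were those of Krt8, the type II keratin of the first embryonic keratin pair, in HM-1 NT minus B6NT. In HM-1 NT minus B6NT the ratio of Krt8 was 3.29 and 2.40 on arrays 1 and 2 and 2.57 and 0.82 on arrays 3 and 4. All 4 arrays were positive, and array 4 was the lowest. The fitted value was 2.27 ± 0.43 (SE, n = 4 arrays), with an adjusted p of 0.00276 in limma's joint fit of all arrays, Benjamini-Hochberg adjusted within the comparison. In that comparison 1.04% of all features passed the threshold of 0.05. Krt8 held to 4 of 4 calls when each array of the comparison was left out in turn, with values between 1.99 and 2.69. With the ratios left as they stand in place of the turn by the dye labels, the value was 0.57 with an adjusted p of 0.728.

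Krt8 was also positive on all 4 arrays of HM-1 NT minus HM-1, the comparison of this line with the line labelled HM-1 alone. The ratios were 1.91, 1.64, 0.99 and 0.90. The fitted value of 1.36 ± 0.43 did not pass the test (limma adjusted p = 0.240, n = 4 arrays), where 0.254% of all features did. With arrays weighted by their quality it passed, at 1.44 and a limma adjusted p of 0.0122, and with the ratios left as they stand it was 0.42 with an adjusted p of 0.823.

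The remaining comparison with HM-1 NT gave values of both signs. In ZFCUMNT minus HM-1 NT the ratios of Krt8 were -0.03, -0.43, 0.43 and -1.44. The fitted value was -0.37 ± 0.43 (limma adjusted p = 0.998, n = 4 arrays), and 0.292% of all features passed.

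The plot of fitted values for the 9 genes shows how few of the values stood apart. Of 117 possible values, 107 had enough arrays to be tested, 69 of these were positive, and 2 passed the threshold: Krt8 in HM-1 NT minus B6NT and Cdx2 in B6PGA minus #4 (B6). The share of positive values over all features was not counted, so the 69 are a description only. Over all features 0.532% of such values passed. At an unadjusted p under 0.05 there were 10 of the 107 values, against 7.79% of the values of all features. On 17 of the 82 values measured on all 4 arrays (20.7%) the arrays shared 1 sign, against 14.3% of all features' values.

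**Figure D1:**
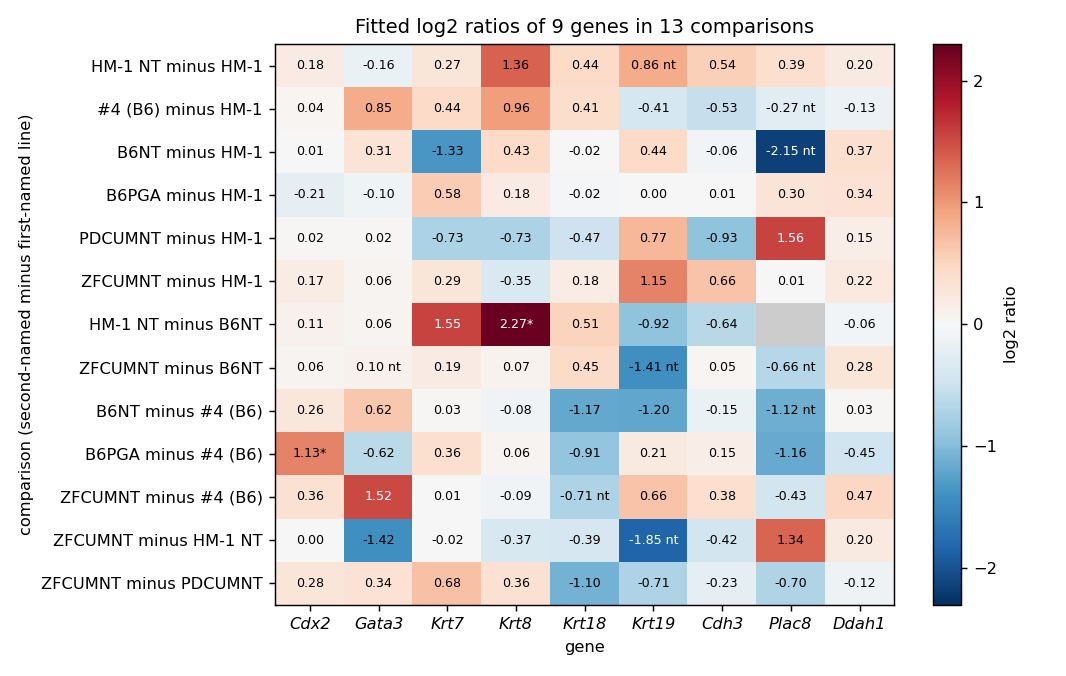
Fitted log2 ratio (colour and number) of the 9 genes (columns) in the 13 comparisons (rows), the second-named minus the first-named line, n = 4 arrays each with missing arrays left out. Asterisks mark the 2 values past the adjusted threshold, "nt" marks values with too few arrays to test, and the grey cell had no measured array. Krt8 in HM-1 NT minus B6NT, at 2.27, is the highest tested value.

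When all arrays were fitted together as 7 line levels, each a deviation from the mean of the 7 lines, Krt8 was the 1 gene of the 7 tested that differed across the lines (limma's moderated F = 5.18, adjusted p = 0.0168, 52 arrays). Across all features 3.25% passed this test. The level of Krt8 was 1.13 ± 0.24 (SE) in HM-1 NT. It was 0.13 ± 0.21 in #4 (B6), 0.06 ± 0.30 in B6PGA, -0.07 ± 0.18 in ZFCUMNT, -0.26 ± 0.16 in HM-1, -0.26 ± 0.21 in B6NT and -0.71 ± 0.30 in PDCUMNT. HM-1 NT stood above the next line, #4 (B6), by 1.004 ± 0.36 (95% interval 0.28 to 1.73), and above PDCUMNT by 1.85 ± 0.43. No other neighbours in this order had an interval that left out 0.

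The call of Krt8 across the lines needed the turn by the dye labels and both comparisons in which HM-1 NT was set against HM-1 and B6NT. Without HM-1 NT minus B6NT the level in HM-1 NT was 0.69 and the adjusted p of the limma F test was 0.309. Without HM-1 NT minus HM-1 the level was 1.15 and the adjusted p 0.149. With the ratios of all arrays left as they stand the level in HM-1 NT was 0.37 and the adjusted p 0.372. The call was also lost without array 1 or array 3 of HM-1 NT minus B6NT (adjusted p 0.0599 and 0.0564). The line levels put HM-1 NT above B6NT by 1.40, against 2.27 in the direct comparison, and ZFCUMNT below HM-1 NT by 1.20, against a direct value of -0.37. A limma F test of the direct against the fitted values did not pass for Krt8 (adjusted p = 0.747; 0.109% of all features passed), which does not show that they are equal.

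**Figure D2:**
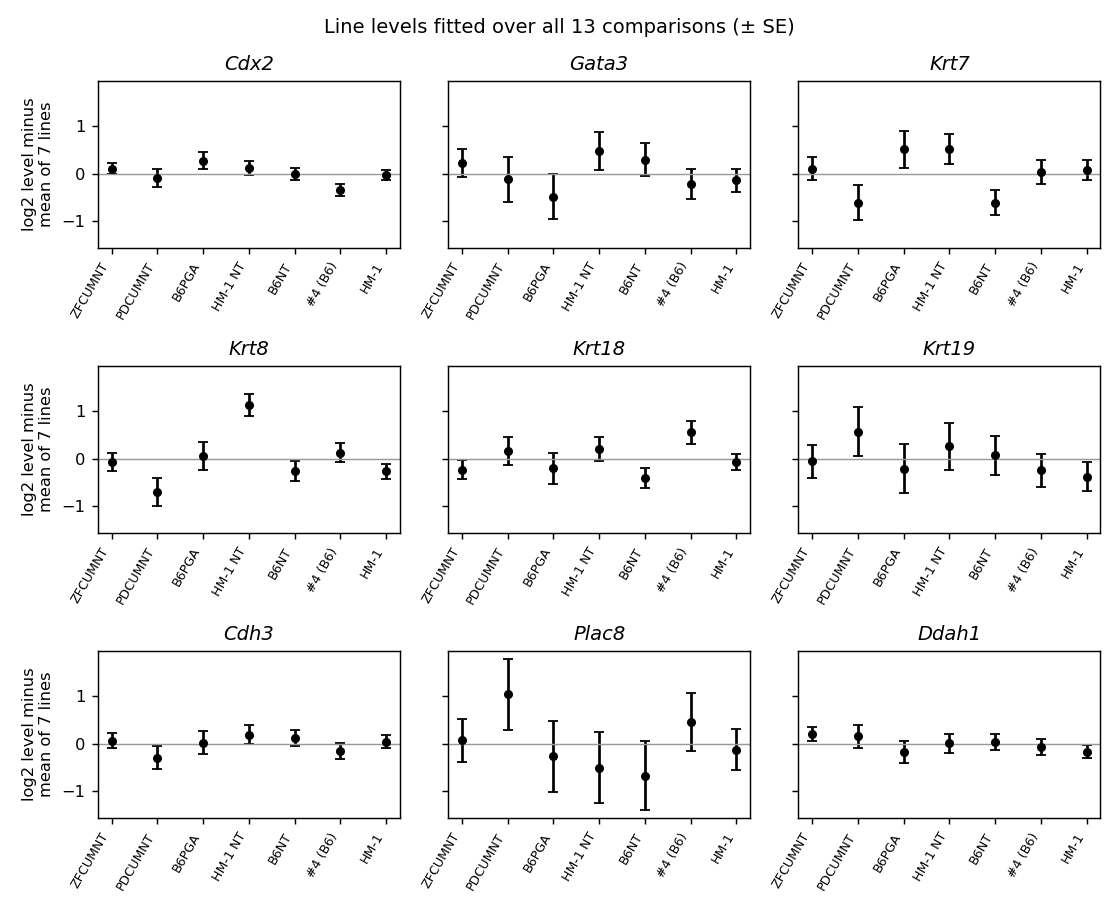
Level of each of the 9 genes in the 7 lines (horizontal axis) as log2 deviation from the mean of the 7 lines (vertical axis); points are fitted values and bars are ± SE. Krt8 in HM-1 NT, at 1.13, lies apart from the other 6 lines; Krt19 and Plac8 were measured on too few arrays to test.

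The remaining values of Krt8 were smaller. In #4 (B6) minus HM-1 its ratios were 1.77, 0.32, 0.67 and 1.07, all positive, with a fitted 0.96 ± 0.43 that did not pass the test in limma (unadjusted p = 0.0300). In PDCUMNT minus HM-1 they were -1.58, -0.16, -0.94 and -0.26, all negative, with a fitted -0.73 ± 0.43 (limma adjusted p = 0.571). In ZFCUMNT minus #4 (B6) the sign followed the dye: the ratios were 2.68 and 1.04 with ZFCUMNT in Cy5 and -1.76 and -2.31 with ZFCUMNT in Cy3. The fitted value there was -0.09 ± 0.43; with the ratios left as they stand it was 1.94, and the limma adjusted p was 0.0204. Of all features 0.935% passed in that comparison with the ratios turned.

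Krt18, the type I partner of Krt8 in keratin filaments, passed in no comparison by limma, with 2 at an unadjusted p under 0.05. Its ratios in HM-1 NT minus B6NT were 1.27 and 1.29 on arrays 1 and 2 and -0.50 and -0.03 on arrays 3 and 4, so that the sign changed with the dye. The fitted value was 0.51 ± 0.47 (limma adjusted p = 0.845). Its line levels ran between 0.56 ± 0.24 in #4 (B6) and -0.41 ± 0.22 in B6NT, with 0.21 ± 0.25 in HM-1 NT, and did not differ by the limma F test (adjusted p = 0.345). The line fit put #4 (B6) above HM-1, ZFCUMNT and B6NT with unadjusted 95% intervals that left out 0. Of these direct comparisons only B6NT minus #4 (B6) had such an interval, -2.27 to -0.08.

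Krt18 had the lowest p for the dye term among the 7 genes tested. As deposited, its ratio was positive on 42 of 48 arrays. Turned, it averaged 0.62 on arrays with the second-named line in Cy5 and -0.94 on arrays with it in Cy3. The fitted dye term was 0.76 ± 0.14 (limma adjusted p = 6.66e-05). The dye term also passed for Cdh3, at 0.34 ± 0.09 (limma adjusted p = 0.00529), and for none of the other 5 genes tested. Over all features the dye term passed in 32.3%. For Krt8 it was 0.21 ± 0.12 (limma adjusted p = 0.161).

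The 2 lowest fitted values of Krt18 lay in other comparisons. In B6NT minus #4 (B6) the 3 measured arrays gave 1.42, -2.58 and -1.59, with a fitted -1.17 ± 0.54. In ZFCUMNT minus PDCUMNT the ratios were 0.10, 0.71, -4.23 and -0.96, with a fitted -1.10 ± 0.47, of which array 3 was the most negative. With the ratios left as they stand both turned positive, at 0.18 and 1.499. Neither passed the test in limma (adjusted p = 0.9997 and 0.311). Once the dye term and each array's median were removed, Krt8 and Krt18 had a Pearson correlation of 0.361 over 48 arrays, the highest of the 36 pairs of these genes; the lowest was that of Krt7 and Ddah1, at -0.229 over 47 arrays. Arrays share lines and hybridisations, so these are descriptions.

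**Figure D3:**
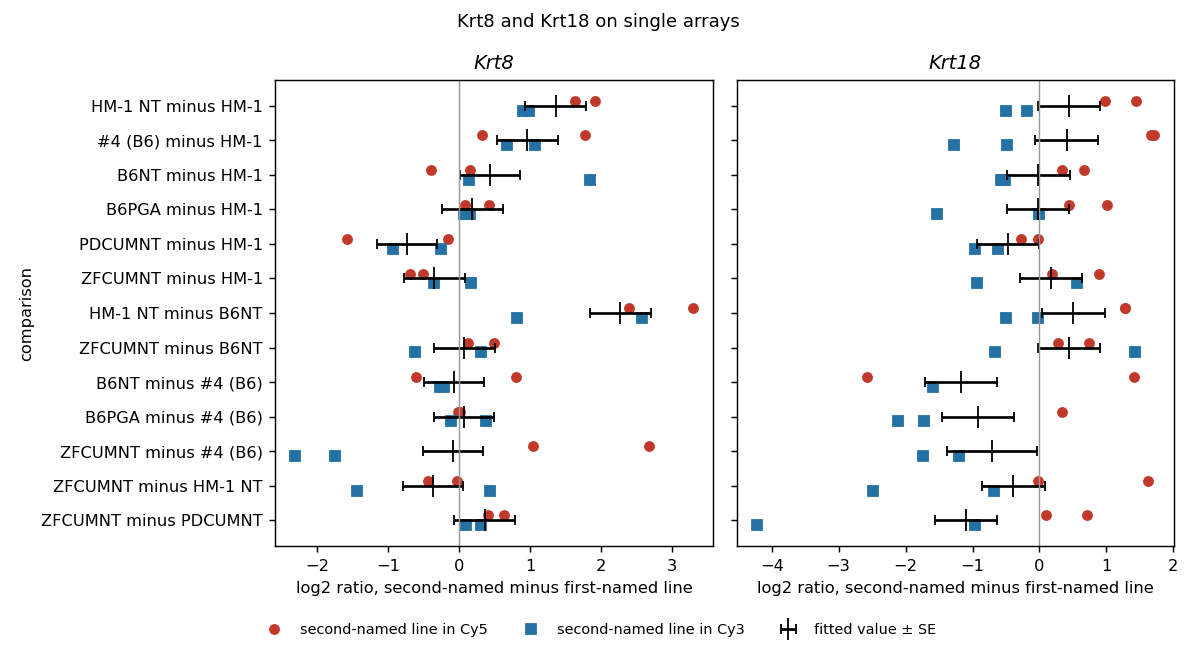
Ratio of Krt8 (left) and Krt18 (right) on each array, with 1 row per comparison; the horizontal axis is the log2 ratio of the second-named minus the first-named line, red circles have the second-named line in Cy5, blue squares in Cy3, and black marks are fitted values ± SE. For Krt8 all 4 points of HM-1 NT minus B6NT lie between 0.82 and 3.29; for Krt18 red and blue points lie apart in most rows.

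Krt7, another type II simple keratin and a trophoblast marker, shared the sign of Krt8 in HM-1 NT minus B6NT. Its ratios were 1.17, 1.17, 2.04 and 1.84, all positive and closer together than those of Krt8. The fitted value was 1.55 ± 0.57, which did not pass the test over all features (limma unadjusted p = 0.00957, adjusted p = 0.242). In HM-1 NT minus HM-1 the 3 measured arrays gave -1.43, 1.28 and 0.76, with both signs and a fitted 0.27 ± 0.66.

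In B6NT minus HM-1 Krt7 gave -1.26, 0.54, -3.89 and -0.71, with a fitted -1.33 ± 0.57 (limma adjusted p = 0.730), where 0.17% of all features passed. Its line levels were 0.52 ± 0.32 in HM-1 NT and 0.51 ± 0.39 in B6PGA at the top, and -0.61 ± 0.26 in B6NT and -0.62 ± 0.36 in PDCUMNT at the bottom. The limma F test over the lines did not pass (adjusted p = 0.343).

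Krt19, the type I keratin that lacks most of the tail of its family, was measured on 38 of 52 arrays, too few for the test over lines. Its 3 arrays of HM-1 NT minus B6NT gave -1.05, -0.74 and -1.17, all negative, where Krt8 and Krt7 were positive. The fitted value was -0.92 ± 0.80 (limma adjusted p = 0.825). In B6NT minus #4 (B6) its 3 arrays were also all negative, at -1.27, -2.28 and -0.24, with a fitted -1.20 ± 0.80 (limma adjusted p = 0.9997). The line levels had the other sign in both comparisons, at 0.19 for HM-1 NT minus B6NT and 0.32 for B6NT minus #4 (B6). Its levels ran between 0.57 ± 0.52 in PDCUMNT and -0.38 ± 0.30 in HM-1, with standard errors about as large as the levels.

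**Figure D4:**
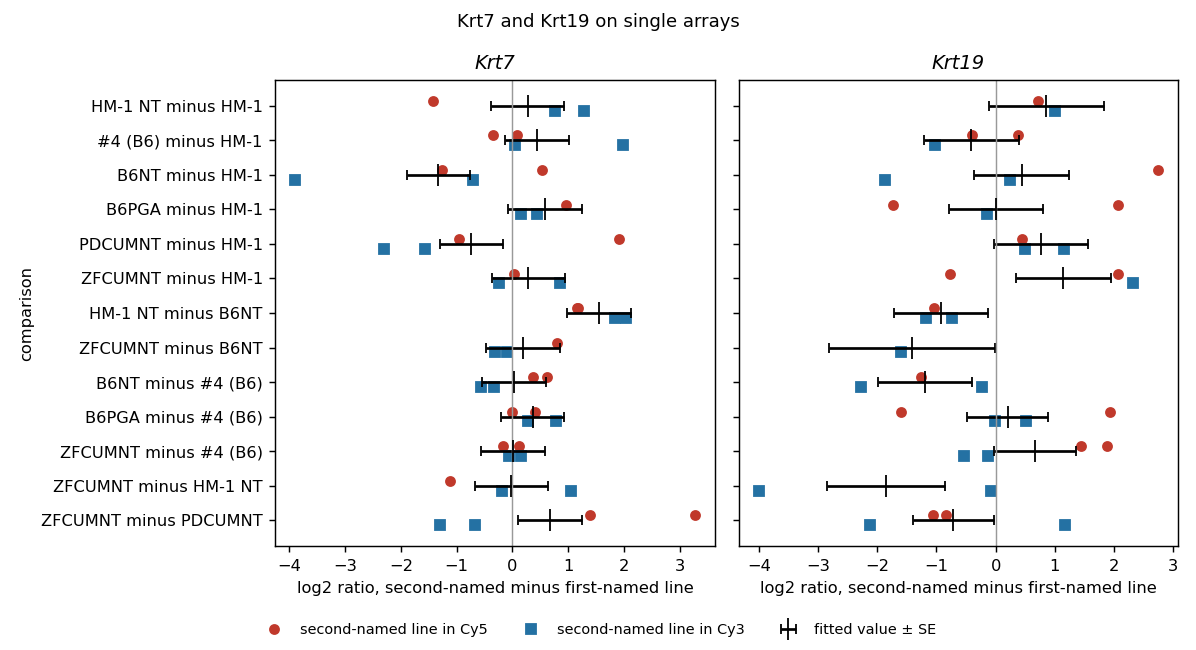
Ratio of Krt7 (left) and Krt19 (right) on each array, with 1 row per comparison, as log2 ratio of the second-named minus the first-named line; red circles have the second-named line in Cy5, blue squares in Cy3, and black marks are fitted values ± SE. All 4 points of Krt7 in HM-1 NT minus B6NT lie above 0 and all 3 points of Krt19 below it.

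Cdx2, the transcription factor that sets up the trophectoderm, passed the test in B6PGA minus #4 (B6), where 1.22% of all features did, but its probes did not show the same thing. The first probe gave 0.05, -0.18, 0.03 and -0.12, all close to 0. The other probe gave -0.07, 5.38, 3.66 and 0.33, with arrays 2 and 3 far above arrays 1 and 4. Fitted on their own, the first probe had a value of -0.06 ± 0.21 (limma adjusted p = 0.995) and the other of 2.33 ± 0.51 (limma adjusted p = 0.00849). Both probes are annotated to the same transcript.

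The mean of the probes was 1.13 ± 0.28 (limma adjusted p = 0.0245, n = 4 arrays). It was 0.68 without array 2 (limma adjusted p = 0.350) and 0.84 without array 3 (limma adjusted p = 0.244), so the call needed both arrays. With array weights the limma adjusted p was 0.113, and with arrays scaled to equal spread 0.0586. With the ratios left as they stand the value was 0.16 and the limma adjusted p 0.948. In B6PGA minus HM-1, the other comparison with B6PGA, Cdx2 was negative on all 4 arrays, between -0.30 and -0.09, with a fitted -0.21 ± 0.28.

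Over the lines Cdx2 ran between 0.27 ± 0.19 in B6PGA and -0.34 ± 0.13 in #4 (B6), and the limma F test did not pass (adjusted p = 0.397). For B6PGA minus HM-1 the line levels gave 0.30, against a direct value of -0.21. For #4 (B6) minus HM-1 they gave -0.31, against a direct value of 0.04. The Cdx2 level was 0.11 ± 0.15 in HM-1 NT, the line with the highest Krt8. The arrays of HM-1 NT minus B6NT gave Cdx2 ratios of 0.14, 0.64, -0.25 and -0.11, with a fitted 0.11 ± 0.28. Over the 50 arrays that measured both, the 2 Cdx2 probes had a correlation of -0.105 and the same sign on 18 arrays.

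**Figure D5:**
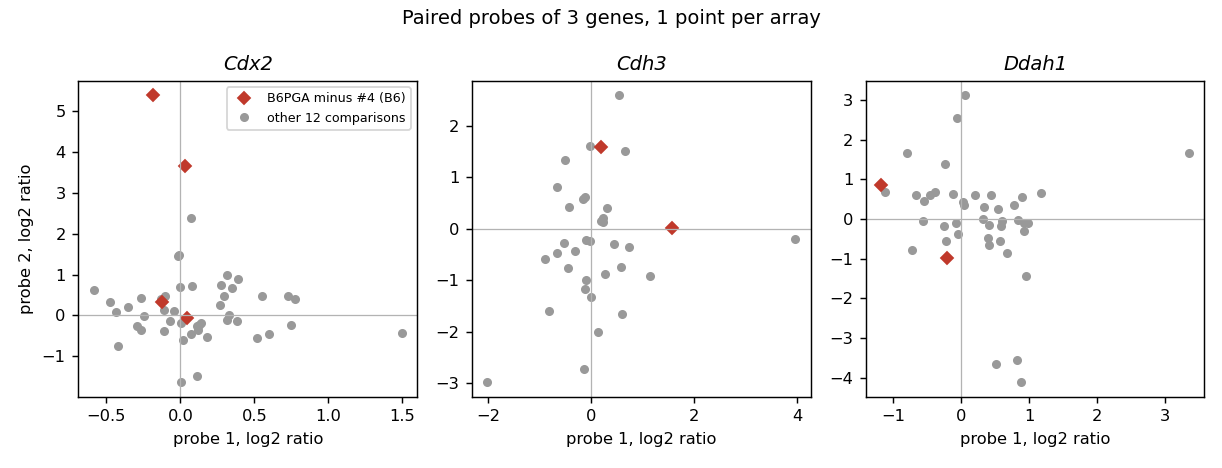
Log2 ratio of the first probe (horizontal axis) against the other probe (vertical axis) of Cdx2, Cdh3 and Ddah1, with 1 point per array that measured both; red diamonds are arrays of B6PGA minus #4 (B6), and grey points are the other 12 comparisons. The Cdx2 arrays with the other probe at 5.38 and 3.66 lie near 0 on the first probe.

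Gata3, a transcription factor that acts beside Cdx2 in the trophectoderm, passed in no comparison by limma, with 1 at an unadjusted p under 0.05. Its highest fitted value was 1.53 ± 0.67 in ZFCUMNT minus #4 (B6), from 5.32, -0.42, 0.65 and 0.55, where array 1 lay far above the others (limma adjusted p = 0.296). In B6NT minus #4 (B6) all 4 arrays were positive and close together, at 0.45, 0.89, 0.49 and 0.68, with a fitted 0.62 ± 0.67. The 3 measured arrays of HM-1 NT minus B6NT gave -0.71, -0.20 and 1.04. Over the lines its limma F test did not pass (adjusted p = 0.913).

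Cdh3, the P-cadherin of placenta and other epithelia, had its most negative fitted value in PDCUMNT minus HM-1. The ratios were -0.16, -0.75, -1.16 and -1.65, all negative. The fitted value of -0.93 ± 0.34 did not pass (limma unadjusted p = 0.00848, adjusted p = 0.191), and 1.14% of all features did. All 4 arrays were also negative in HM-1 NT minus B6NT, between -1.22 and -0.12, with a fitted -0.64 ± 0.34, and all 4 were positive in ZFCUMNT minus HM-1, between 0.18 and 1.47, with a fitted 0.66 ± 0.34. Across the lines the levels spanned 0.48 and did not differ by the limma F test (adjusted p = 0.892). These levels gave 0.06 for HM-1 NT minus B6NT, 0.02 for ZFCUMNT minus HM-1 and -0.34 for PDCUMNT minus HM-1. A limma F test of the direct against the fitted values had an unadjusted p of 0.0186 and did not pass (adjusted p = 0.549, where 0.109% of all features passed). The Cdh3 probes had a correlation of 0.200 over 35 arrays and the same sign on 21 of them.

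Plac8, a small cysteine-rich protein found in placenta, was the least measured of the genes, on 32 arrays and on none of HM-1 NT minus B6NT. Its ratios had the largest standard deviation over arrays, 2.08. In ZFCUMNT minus B6NT, for example, the 2 measured arrays gave 4.17 and -3.67. All 3 measured arrays of B6PGA minus #4 (B6) were negative, between -1.89 and -1.12, with a fitted -1.16 ± 1.21. With such errors no difference was detected by limma in the comparisons with enough arrays to test, which does not show that there was none.

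Ddah1, an enzyme that breaks down methylated arginine, which inhibits nitric oxide synthesis, had the narrowest span of line levels, 0.38, and did not pass the limma F test over lines (adjusted p = 0.892). All 4 arrays were positive in B6NT minus HM-1, between 0.20 and 0.72, with a fitted 0.37 ± 0.38. All 4 were negative in B6PGA minus #4 (B6), between -0.94 and -0.11, with a fitted -0.45 ± 0.38. Its probes had a correlation of -0.173 over 44 arrays and the same sign on 18 of them.

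HM-1 NT was set against HM-1, and B6NT against #4 (B6), with no array in common, and these differences were averaged and compared. The labels do not say that B6NT was made from #4 (B6); the pairing follows the names only. No gene of the 7 tested passed in the average or in the difference by limma, where 0.151% and 0.197% of all features did. For Krt8 the average of HM-1 NT minus HM-1 and B6NT minus #4 (B6) was 0.64 ± 0.30 (limma unadjusted p = 0.0393, adjusted p = 0.882). The difference between them was 1.43 ± 0.60 (limma unadjusted p = 0.0221, adjusted p = 0.782), since B6NT minus #4 (B6) gave 0.80, -0.61, -0.22 and -0.27, with a fitted -0.08 ± 0.43. For Krt18 the difference was 1.61 ± 0.71 (limma unadjusted p = 0.0300, adjusted p = 0.862).

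Beside these genes, 12 of 23 listed trophectoderm and trophoblast regulators were on the array. Of their 149 tested values 2 passed, both positive. Ascl2, a regulator of the ectoplacental cone, was at 1.43 ± 0.25 in ZFCUMNT minus #4 (B6) (limma adjusted p = 0.00173, arrays between 0.26 and 2.42). Arid3a, a trophectoderm transcription factor, was at 3.92 ± 0.77 in ZFCUMNT minus PDCUMNT (limma adjusted p = 0.00996). Its 3 arrays lay between 1.02 and 8.41, and it did not pass the limma F test over the lines (adjusted p = 0.109). Across all features and comparisons 0.532% of values passed. In HM-1 NT minus B6NT, the comparison with the Krt8 call, 7 of 11 tested regulators were positive. None passed in limma, where 1.04% of all features did. An unadjusted p under 0.05 was found for 2, against 1503 of 15221 features. The median of the 11 was 0.43, against 0.01 for all features. Across the lines, where 3.25% of all features passed, 2 of 11 regulators differed by the limma F test. These were Klf5, a factor of both trophectoderm and ES cells, which was lowest in #4 (B6) at -0.67 ± 0.16 (adjusted p = 0.0225), and Ascl2, which was lowest in #4 (B6) at -0.60 ± 0.13 and highest in HM-1 NT at 0.41 ± 0.15 (adjusted p = 0.0420).

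Of 24 listed genes of epithelial junctions and fluid transport 14 were on the array. Among their 171 tested values 1 passed, against 0.532% of the values of all features. The value that passed was of Pkp1, a plaque protein of desmosomes, the junctions to which keratin filaments attach. It was 2.31 ± 0.51 in HM-1 NT minus HM-1 (limma adjusted p = 0.0297, arrays between 0.95 and 3.55). In HM-1 NT minus B6NT, the comparison with the Krt8 call, Pkp1 was at -0.85 ± 0.51 (limma adjusted p = 0.631). Its line levels were 0.49 ± 0.32 in HM-1 NT and 0.51 ± 0.26 in B6NT. Of 13 tested in HM-1 NT minus B6NT 5 were positive, with a median of -0.13. None passed in limma, where 1.04% of all features did, and 1 had an unadjusted p under 0.05, against 1503 of 15221 features. Of the 13 genes tested over the lines 0 passed the limma F test (3.25% of all features did). At an unadjusted p under 0.05 there was 1, against 2370 of 15581 features.

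The 17 other keratins on the array, most of them keratins of stratified epithelia and hair, were centred near 0 in the comparison with the Krt8 call. There 9 of 17 were positive, with a median of 0.002, and none passed in limma, where 1.04% of all features did. Of the 17, 2 had an unadjusted p under 0.05, against 1503 of 15221 features. Of their 207 values over all comparisons 2 passed as positive and 1 as negative, against 0.532% of the values of all features. Krt16 gave 1.07 ± 0.23 in ZFCUMNT minus B6NT, Krt15 gave 1.59 ± 0.38 in ZFCUMNT minus PDCUMNT, and Krt88 gave -1.14 ± 0.30 in ZFCUMNT minus #4 (B6) (limma adjusted p = 0.0411, 0.0437 and 0.0459). Of 16 tested over the lines 0 passed the limma F test (3.25% of all features did). Of the 16, 2 had an unadjusted p under 0.05, against 2370 of 15581 features.

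Markers of other cells that a culture could hold were read beside these results. Of 20 fibroblast markers, which feeder cells would carry, 16 were on the array. Across the lines, where 3.25% of all features passed, 7 of 15 of these markers differed by the limma F test. In HM-1 NT minus B6NT 12 of 15 were positive, with a median of 0.44 against 0.01 for all features. There 1 passed, where 1.04% of all features did: Col1a2, a fibrillar collagen chain, at 1.12 ± 0.26 (limma adjusted p = 0.0239). Their median line level was 0.44 in B6PGA, 0.12 in HM-1 NT, 0.10 in #4 (B6), -0.12 in ZFCUMNT, -0.27 in HM-1, -0.28 in B6NT and -0.35 in PDCUMNT. By this median, fibroblast markers were highest in B6PGA, where Krt8 was near the mean of the lines, and lowest in PDCUMNT, where Krt8 was lowest too; their part in the Krt8 result was not tested.

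Of 17 markers of primitive and visceral endoderm, which also makes simple keratins, 13 were on the array. Of 10 tested in HM-1 NT minus B6NT 7 were positive, with a median of 0.13. None passed in limma, where 1.04% of all features did, and 2 had an unadjusted p under 0.05, against 1503 of 15221 features. The median line level of these markers in HM-1 NT was -0.06. Across the lines 2 of 10, Sparc and Apoe, differed by the limma F test, against 3.25% of all features. The part of the endoderm markers in the result was not tested. Ratios alone give no level at which a marker would be absent.

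Of 11 ES cell markers 9 were on the array. Across the lines, where 3.25% of all features passed, 4 of 8 of these markers differed by the limma F test: Pou5f1, Klf4, Dppa5a and Dppa3. Klf4 and Dppa5a were at -0.90 ± 0.08 and -1.56 ± 0.09 in #4 (B6), their lowest of the 7 lines. None of the 8 tested in HM-1 NT minus B6NT passed in limma, where 1.04% of all features did. Of the 8, 3 had an unadjusted p under 0.05, against 1503 of 15221 features. Pou5f1 was at 0.41 ± 0.22 there (limma adjusted p = 0.550). In the comparison with the Cdx2 call, B6PGA minus #4 (B6), 2 of 9 tested ES cell markers passed, where 1.22% of all features did. These were Klf4 and Dppa5a, at 1.81 ± 0.18 and 1.81 ± 0.20 (limma adjusted p = 2.15e-08 and 1.93e-07). Of 15 fibroblast markers 1 passed there, Lox, at 0.79 ± 0.20 (limma adjusted p = 0.0312). None of 11 trophectoderm and trophoblast regulators passed. Of these 11, 3 were positive, with a median of -0.115, against -0.018 for all features. Among 14 junction and transport genes, 15 other keratins and 10 endoderm markers none passed either.

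The named genes whose ratios were most like those of Krt8 over the arrays, once the dye term and array medians were removed, were Car2, with a correlation of 0.707 over 52 arrays, Kbtbd8, with 0.697 over 49, and Psme2, with 0.602 over 52, among 7684 genes compared. Car2, a carbonic anhydrase, also differed across the lines by the limma F test (adjusted p = 0.0131), and the other two did not pass. For Krt18 they were Rps29, Calr and Dusp26, at 0.645 over 48 arrays, 0.592 over 45 and 0.571 over 46. For Krt7 the closest was Pdzk1ip1, at 0.603 over 45 arrays, and for Cdx2 it was Slc30a3, at 0.627 over 45. For Gata3 it was Serpinf1, at 0.606 over 46 arrays, for Cdh3 Colec12, at 0.514 over 52, and for Ddah1 Rassf8, at 0.605 over 50. Krt19 and Plac8 were measured on too few arrays for this comparison.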

How the data were processed

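Mouse ES lines were compared on 2-colour cDNA arrays. The deposited values are ratios of the 2 channels of each array, read as log2; neither the log base, the numerator dye, the background correction nor the normalization is given in the sources used here. The labels' protocol text also mentions organs and a pooled control as second channel, while each channel of every array is labelled with an ES line; the channel labels were used. Symbols came from the platform annotation for 12771 of 20794 probes (8023 had none), and all 12771 equalled the RefSeq symbol of their gene identifier.

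Each array's constant top value (15.7 to 17.4, on 20 to 174 probes, while the highest other value was 10.7) was left out as unmeasured; this was decided on seeing the values. Ratios were turned by the dye labels. Probes of a symbol were averaged, which gave 17053 features. The 13 comparisons were fitted together in R 4.3.3 with limma 3.58.1, with a dye term per feature; features with at least 3 measured arrays in both orientations were tested and p-values were Benjamini-Hochberg adjusted per comparison. A joint fit gave the line levels, and its F test used features with at least 39 measured arrays and a measured array in each comparison. The p-values of the comparison fit were checked against limma's own fit of the same data. The number of arrays limits the precision.

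The members and gene lists were chosen with earlier results of these data known. All 9 members are named; other genes are named where they belong to a list and pass a test, stand beside a result as markers, or are among the 3 most like a member over at least 45 arrays. Arrays with the same number in different comparisons did not deviate together (median correlation of residuals -0.0356, lowest -0.193). This cannot exclude a pairing by number, because the residuals are what the comparison and dye terms left over. Alternatives were scaling, top values, single probes, orientation, dye term, array weights, block, filters and left-out arrays.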

Additional observations from a re-analysis of the deposited data

Results flagged for a closer look

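In groups of 4 arrays, 82 values of the 9 genes were examined for an array far from the other 3, and 3 stood apart; chance gives about 1 in 20. All 3 were Ddah1 on array 1, which has the second-named line in Cy5. In #4 (B6) minus HM-1 that array was at -1.359, with the others between 0.146 and 0.433. In ZFCUMNT minus HM-1 it was at 0.911, with the others between -0.086 and 0.071. In ZFCUMNT minus #4 (B6) it was at 2.504, with the others between -0.389 and -0.007. The 3 arrays are different hybridisations, and none of the 3 comparisons passed the test for Ddah1.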

How the results depend on the processing

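The count of calls in single comparisons, 2 as reported, was 1 with arrays scaled to equal spread (Krt8), 1 with ratios as they stand (Krt8 in ZFCUMNT minus #4 (B6)) and 0 with each comparison fitted alone, where limma called 0 of all features. The 1 gene called across the lines, Krt8, became 0 with the 4 arrays of a comparison averaged first (limma then called 1 of 13035 features), and 0 without the comparison HM-1 NT minus HM-1 or HM-1 NT minus B6NT. With ratios as they stand 1 gene was called across the lines too, but it was Krt18 (adjusted p = 0.0350). Leaving out 1 array at a time gave 1 to 2 calls in single comparisons and 0 to 1 across the lines. The NT contrasts had 0 calls in limma under every alternative run.

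With ratios as they stand 60 of 116 values of single comparisons and 29 of 63 line levels had the other sign; among them Krt8 was 1.94 in ZFCUMNT minus #4 (B6) and its level in PDCUMNT 0.0823, and Krt18 was 1.499 in ZFCUMNT minus PDCUMNT and its level in ZFCUMNT 0.59. The Krt8 level in HM-1 NT was then 0.37 and Cdx2 in B6PGA minus #4 (B6) 0.16, both without a call. Cdx2 in B6PGA minus #4 (B6) was -0.0568 on its first probe. Over all alternatives, 1528 values of single comparisons kept their call or, where not called, stayed within 1 SE, and 119 moved further. With the sign kept, 8 lost and 1 gained a call, and 2 lost or gained a call with the other sign. Of line levels these were 4688, 96, 13, 3 and 2. The cause was not tested for any of these changes.

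With the array number as a replicate block the counts stayed 2, 1 and 0, and Krt8 in HM-1 NT minus B6NT had a limma adjusted p of 0.00286; the block changed no call of these genes. The correlation of deviations did not show pairing by number. Counts over all features varied more: single comparisons had 1096 calls as reported, 4511 with ratios as they stand, 597 without the dye term and 1721 with array weights, and the lines had 506 as reported, 2778 with ratios as they stand, 335 without the dye term and 1 with arrays averaged. Missing spots limited Plac8 and Krt19 most, on 32 and 38 arrays.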
